A study of Mus musculus with 6 samples.

Results

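The S100 proteins are a family of small calcium-binding proteins, and 10 of their mouse genes were examined here in fibroblasts that lack or keep the kinase p38α. The genes were S100a1, S100a3, S100a4, S100a6, S100a8, S100a9, S100a10, S100a11, S100a13 and S100b. A gene was taken up where the accession of a gene probe matched it in a RefSeq gene table, which gave 8 of the 10, with 1 probe each, among 19801 gene probes on the array. S100a4 and S100a11 had no probe named in this way and were not analysed here. Both groups were mouse embryo fibroblasts of the mixed background 129/svev × C57Bl/6, immortalised spontaneously by serial passage, stably transduced with the oncogene H-RasG12V and grown for 72 h. KO cells were deficient in p38α (p38α-/-, n = 3 cultures) and WT cells were wild type (n = 3 cultures), so the oncogene was present on both sides of the comparison. The comparison addressed which transcripts differ between p38α-deficient and wild-type cells that express oncogenic Ras. The labels call the cultures biological replicates but do not say whether they came from separately derived lines, so the p-values measure the spread between these samples, which may be technical. If each genotype came from 1 line, differences of genotype and of line cannot be told apart.

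S100 proteins carry a pair of EF-hands, helix-loop-helix motifs that bind calcium, and mostly work as dimers. On binding calcium they open a surface that grips target proteins such as annexins, cytoskeletal proteins and p53, and some members also act outside the cell through receptors such as RAGE and TLR4. Most S100a genes lie in clusters on a single chromosome, number 3 in the mouse, whereas S100b lies elsewhere, on chromosome 10. In fibroblasts the family is known above all for S100a4, S100a6, S100a10 and S100a11.

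Levels are given as background-subtracted spot intensities, which are linear, and as normalized log2 signals, on which all tests were made. Between 43.8% (KO replicate 3) and 51.7% (KO replicate 1) of the gene probes were above background per array, and the median local background was 61 units on KO replicate 3 against 49 to 53 elsewhere. The median background-subtracted intensity of all gene probes was 18.8 to 21.7 on the KO arrays and 15.9 to 17.5 on the WT arrays. Intensities before normalization, and sums of them, carry this offset between the groups. Precision is limited by having 3 arrays per group. Mapk14, which encodes p38α, had intensities of 17.6, 18.6 and 8.35 on the KO arrays and of 60.8, 70.6 and 68.8 on the WT arrays, and the probe was marked above background on 1 KO and 3 WT arrays. The sources used here do not place its probe relative to the deletion. Of 11 measured fibroblast markers, 9 were above background on all 6 arrays, among them Vim, Col1a2 and Pdgfrb, while Thy1 and Lum were near background on all 6. In the fibroblast list 4 of 11 genes were higher and 3 lower in KO. By the same test, described below, 22.6% of all probes differed, and 41.0% of those above background on all 6 arrays. Fstl1 was 4.94-fold higher, Sparc 1.76-fold and Col6a1 1.75-fold, and Fbln2 was 2.22-fold lower. In RNA from whole cultures, fewer cells expressing a gene and less RNA per cell cannot be told apart.

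Of the 8 S100 genes, S100a3 was higher in KO, S100a1 was lower, and 6 did not pass the test. The test was limma's moderated comparison over 19590 probes with a threshold of 0.05 on the Benjamini-Hochberg adjusted p. Over the whole array 22.6% of the probes passed, 10.4% higher and 12.1% lower in KO, so 1 gene in each direction among 8 is a share near this background. When arrays were scaled to a common median instead, 64.1% of the passing probes were higher in KO, against 46.3% here. The 6 genes that did not pass fall into 3 kinds. S100a10 and S100a13 were well measured, S100a6 was saturated on all 6 arrays, and S100a8, S100a9 and S100b were near background on all 6. For 3 of the 8 genes, S100a1, S100a3 and S100a8, the groups did not overlap, as was the case for 36.0% of all probes tested. The median difference was 0.03 on the log2 scale over the 8 genes and -0.01 over all probes tested.

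**Figure D1:**
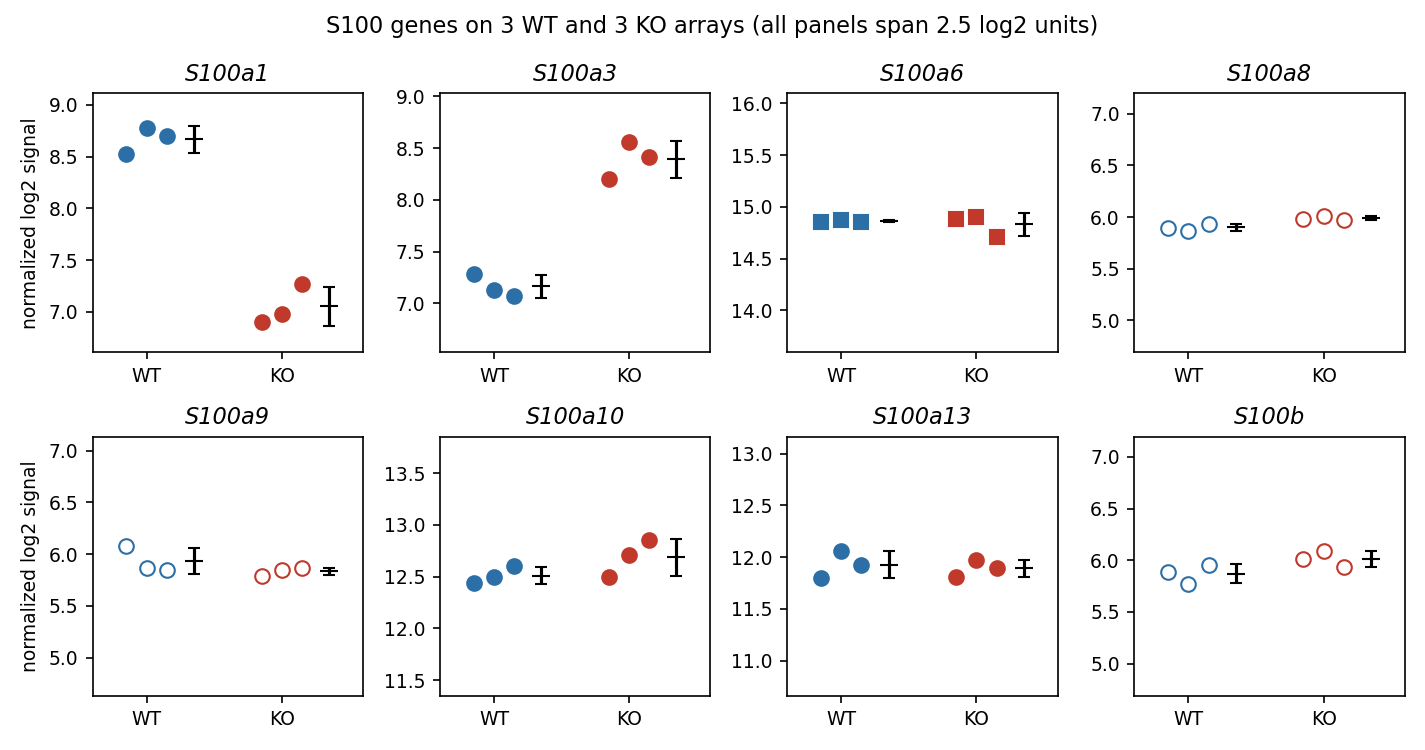
Normalized log2 signal (vertical axes, each spanning 2.5 log2 units) of the 8 S100 genes on the 3 WT and 3 KO arrays, with the mean and SD beside each group. Filled circles are above background, open circles near background and squares saturated. Only S100a1 (8.67 against 7.05) and S100a3 (7.16 against 8.39) have group means over 1 log2 unit apart.

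S100a1 and S100a13 are the first pair of the cluster and are transcribed away from each other from neighbouring starts. The 104 bases between these starts are shown because the pair shares them upstream while 1 gene of the pair passed the test and the other did not. They are taken from RefSeq, build GRCm38.p6, at chr3:90514331-90514434 on the forward strand, on which S100a13 is read to the right and S100a1 to the left.
S100a1-S100a13 between starts: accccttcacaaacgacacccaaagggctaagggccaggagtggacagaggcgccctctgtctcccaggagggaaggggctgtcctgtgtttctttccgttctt
In this stretch 58.7% of the bases are G or C. The 250 bases before each annotated start were searched on both strands for TGANTCA (the AP-1 consensus), TATAAA and CCAAT. S100a10 had no start to search, and neither S100a1 nor S100a13 held any of the 3. Over 32851 windows of 250 bases before annotated mouse starts, 6.75% held TGANTCA, 12.4% TATAAA and 33.8% CCAAT. No match says only that these letters are not in this window.

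The annotated span of S100a3 overlaps that of S100a2, the next S100 gene, which had no named probe. S100a3 has 4 annotated starts in the same table. The sources used here do not say which of them the probe reports, or whether it lies in that overlap. The window before the third start is shown because it belongs to the gene raised in KO and was the only one of the 4 to hold any of these motifs. It lies at chr3:90588313-90588562 on the forward strand of GRCm38.p6, and capitals mark TATAAA, 52 bases before the start, and CCAAT on the reverse strand, 75 bases before it.
S100a3 window: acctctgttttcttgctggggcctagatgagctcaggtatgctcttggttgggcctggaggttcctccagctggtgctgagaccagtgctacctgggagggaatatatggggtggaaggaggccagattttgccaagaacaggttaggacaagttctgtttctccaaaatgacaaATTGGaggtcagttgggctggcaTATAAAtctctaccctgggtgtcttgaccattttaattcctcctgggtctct
These matches do not overlap each other and are a description of the letters, not of a bound site. Of the genes of the set that were searched, TATAAA was also found before S100a4 and S100a8, CCAAT before S100a6 and S100b, and TGANTCA before S100a11. Of their measured neighbours, S100a16 held TGANTCA, in the form TGAATCA, before 1 of 2 annotated starts, and S100a5 held CCAAT. S100a10 had no annotated start in the source used, so it was not searched.

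S100a1, which in heart and skeletal muscle binds the ryanodine receptor and the calcium pump of the sarcoplasmic reticulum, was the S100 gene lowered in KO. In KO its intensities read 78.2, 82.1 and 99.3, and in WT 279.5, 367.5 and 304.5. Every WT culture was thus above every KO culture, and the probe was marked above background on all 6 arrays. On the normalized log2 scale S100a1 lay at 7.05 ± 0.19 in KO and 8.67 ± 0.13 in WT (SD, n = 3), a 3.06-fold lower signal (difference -1.62, SE 0.11, limma adjusted p = 3.27e-05). The 95% confidence interval of the log2 difference ran from -1.87 to -1.36. Of 7 measured muscle and cardiac markers 1 was lower in KO, Tnnt2 by 1.56-fold (adjusted p = 0.000461), and none was higher. The shares over all probes were 12.1% lower and 10.4% higher. Ckm, Myog, Myh6, Ryr2 and Atp2a1 were near background on all 6 arrays. The summed intensity of that list was 128 to 138 in KO and 131 to 175 in WT.

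S100a13, which takes part in the release of FGF1 and interleukin-1α by a route that bypasses the Golgi, did not pass the test. Its intensities were 3987, 4653 and 3568 in KO and 3291, 4091 and 3352 in WT, so the groups overlapped. The normalized log2 signals were 11.89 ± 0.08 in KO and 11.93 ± 0.13 in WT (SD, n = 3), with a difference of -0.04 (95% confidence interval -0.22 to 0.15, adjusted p = 0.844). The interval leaves room for changes of either sign that are small beside that of S100a1. The log2 distance from S100a1 to S100a13 moved by -1.58 between WT and KO, with p = 0.1 in an exact two-sided permutation test over 3 against 3 arrays, the smallest p this design allows. The pair was picked because S100a1 passed and S100a13 did not, so this p adds no support for a difference in response. The RefSeq gene table begins S100a13 further upstream than the start used for the sequence above, so the annotated gene spans of the pair overlap. The sources used here do not say whether either probe lies in the overlap. Of the partners in release, Fgf1, Il1a and Syt1 were near background on all 6 arrays.

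S100a3, a cysteine-rich member with high affinity for zinc that is best known from the hair cuticle, was the S100 gene raised in KO. Across the KO cultures its intensities read 284.9, 379.7 and 282.4, and across the WT cultures 89.5, 81.4 and 68.1. All 3 KO cultures were above all 3 WT cultures, and the probe was above background on every array. The normalized log2 signals were 8.39 ± 0.18 for KO and 7.16 ± 0.11 for WT (SD, n = 3), so KO was 2.35-fold higher (difference 1.23, SE 0.10, 95% confidence interval 1.00 to 1.47, adjusted p = 9.21e-05). Of 11 measured epithelial and keratinocyte markers 2 were higher in KO, against 10.4% of all probes. The other 9 were near background on all 6 arrays, among them Krt8, Krt5, Krt14, Cdh1, Epcam, Lor and Ivl. Krt19, a keratin of simple epithelia, had intensities of 2173 to 3195 in KO and of 17 to 25 in WT, where 1 of 3 arrays marked it above background. Its fitted signal was 31.9-fold higher in KO with 2 of the 3 WT values near background (adjusted p = 4.86e-08). Krt18 was at least 2.16-fold higher (adjusted p = 1.14e-05), whereas its partner Krt8 gave a log2 difference of 0.11 (adjusted p = 0.407). The summed intensity of the list was 2294 to 3385 in KO and 69 to 73 in WT, most of it Krt19 in KO, and its part in the S100a3 result was not tested.

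S100a1 and S100a3 therefore moved in opposite directions although both lie in the same cluster. Between them S100a16 was lower in KO, while S100a13 and S100a14 did not pass. In the order along chromosome 3, S100a13 and S100a14 follow S100a1, then come S100a16 and S100a3. S100a16, a widely expressed member outside the set of 10, had intensities of 78.3, 94.3 and 75.9 in KO and 116.0, 130.0 and 135.4 in WT, without overlap. The KO signal was 1.52-fold lower (-0.60 in log2 units, SE 0.08, adjusted p = 0.000943). S100a14 was near background on all 6 arrays. Beyond S100a3, S100a5, a gene of olfactory sensory neurons, had intensities of 90.1, 104.0 and 82.0 in KO and 54.5, 52.1 and 52.4 in WT. S100a5 passed at 1.20-fold higher (log2 difference 0.26, SE 0.06, adjusted p = 0.0186), but lost its call in 7 of 15 other settings, including the absence of KO replicate 2 (adjusted p = 0.0663) or of any 1 WT replicate (0.0533 to 0.0772).

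**Figure D2:**
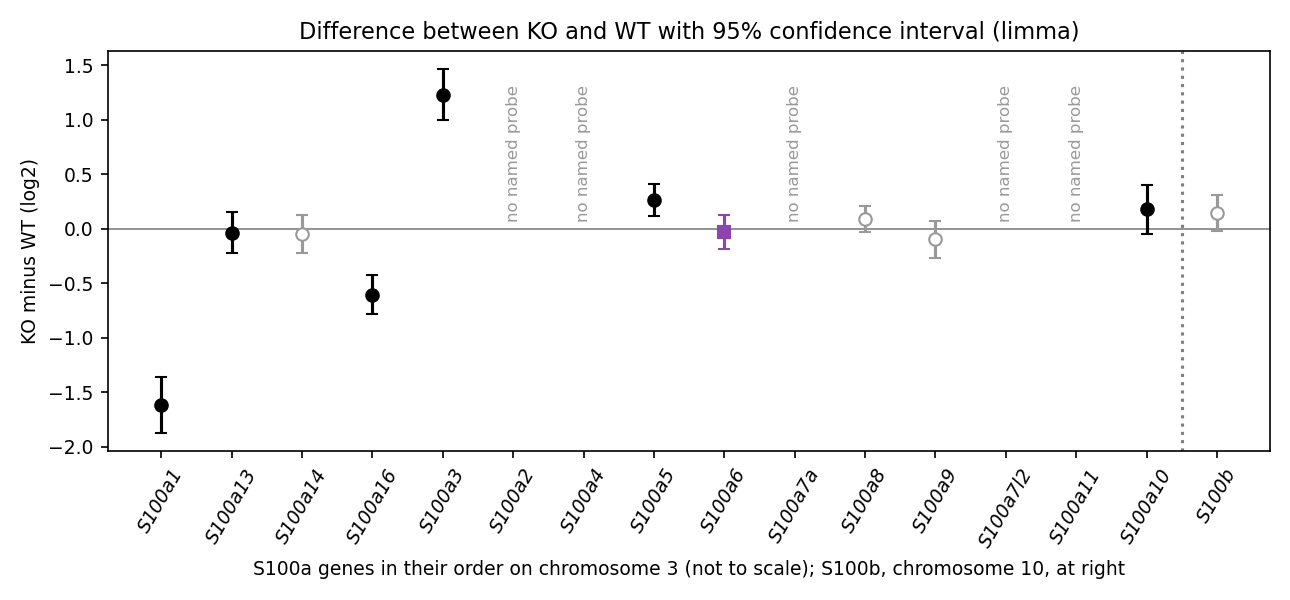
Difference between KO and WT on the log2 scale (vertical axis) with its 95% confidence interval for each S100a gene in its order on chromosome 3 (horizontal axis, not to scale), with S100b of chromosome 10 at the right. Black points are measured, open grey points near background on all 6 arrays, and the square is saturated S100a6. S100a1 (-1.62), S100a16 (-0.60) and S100a3 (1.23) lie clear of 0, with S100a13 (-0.04) beside S100a1. The interval of S100a5 (0.26) also excludes 0, but its call was lost in 7 of 15 other settings.

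Outside the cluster, S100g, the vitamin D-regulated calbindin of the intestine, also differed. Its intensities were 33.6, 37.0 and 19.0 in KO and 4.25, 7.96 and 3.28 in WT, and it was marked above background on 2 KO arrays and on no WT array. S100g was therefore at least 1.10-fold higher in KO, with an adjusted p of 0.00516 for a log2 difference of 0.44. With an offset of 0 the difference was 1.69, and with the authors' normalized values it was 1.95. Repetin, encoded by Rptn, a large epidermal protein with an S100-like start, was near background on all 6 arrays. In all, 2 of 5 such other genes were higher and 1 was lower, against 10.4% higher and 12.1% lower over all probes.

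S100a6, or calcyclin, is induced in proliferating fibroblasts and binds annexins and the ubiquitin ligase adaptor Cacybp. Its spots were saturated on all 6 arrays, with intensities of 30568, 31990 and 26197 in KO and 29362, 30025 and 28494 in WT. Only 11 of the 19590 probes tested were saturated on every array. No fold change is given, because a saturated spot sets a lower bound in both groups, and the adjusted p of 0.836 carries no information on whether the transcript differed. KO replicate 3 had the lowest S100a6 intensity.

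S100a10, also called p11, has lost the ability to bind calcium and forms a tetramer with annexin A2 that anchors plasminogen and its activators at the cell surface. Its intensities were 6341, 7605 and 7045 in KO and 5074, 5644 and 5474 in WT, so before normalization every KO culture was above every WT culture. The median intensity over all gene probes was likewise higher on every KO array than on any WT array. After quantile normalization the groups overlapped, at 12.50, 12.71 and 12.86 in KO and 12.43, 12.50 and 12.60 in WT on the log2 scale. The difference of 0.18 (95% confidence interval -0.05 to 0.40) did not pass (adjusted p = 0.282), and it did not pass in any of the 15 other settings, where it ranged from 0.09 to 0.27. Its partner gene Anxa2 had intensities of 8968, 8493 and 7576 in KO and 4862, 5244 and 4322 in WT. Anxa2 was 1.53-fold higher in KO (log2 difference 0.61, SE 0.06, adjusted p = 0.000251), with groups that did not overlap, but missed the threshold with the authors' normalized values (0.52, adjusted p = 0.058). Whether the responses of S100a10 and Anxa2 differ was not tested.

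S100a8 and S100a9 encode the subunits of calprotectin, an abundant protein of neutrophils and monocytes, and S100b encodes the S100 protein of astrocytes, Schwann cells and melanocytes. All 3 probes were marked near background on all 6 arrays, so no fold is given. S100a8 intensities were 9.11, 10.2 and 9.88 in KO and 4.70, 3.96 and 5.94 in WT, which do not overlap but are near the slide's background. S100a9 ranged from 1.53 to 3.82 in KO and from 2.97 to 11.5 in WT, and S100b from 7.91 to 14.3 in KO and from 0.375 to 6.60 in WT. Adjusted p-values were 0.318, 0.467 and 0.229 in the same order. Of the probes near background on all 6 arrays 0.854% passed, against 41.0% of those above background on all 6, so a missing call for these 3 genes does not show that they were unchanged.

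Of 13 myeloid and neutrophil markers 9 were near background on all 6 arrays, including Ptprc, Itgam, Mpo, Elane and Lyz2. In that list 0 of 13 were higher and 1 was lower, against 10.4% higher and 12.1% lower over all probes. Itgb2, an integrin subunit of leukocytes, was at least 1.39-fold lower in KO (adjusted p = 6.23e-05). The summed intensity was 1503 to 1972 in KO and 1001 to 1389 in WT. Most of it came from Cd14, a co-receptor of TLR4, which was above background on all 6 arrays at 1425 to 1898 in KO and 916 to 1291 in WT and did not pass (log2 difference 0.32, adjusted p = 0.075). The other 12 genes summed to 74 to 79 in KO and 85 to 109 in WT. Cd14 was named after its values were seen. Of 8 glial and melanocyte markers 6 were near background on all 6 arrays, including Mbp, Dct and Tyr. Pmp22, a myelin protein also made by fibroblasts, was the 1 member higher, by 3.50-fold (adjusted p = 6.48e-06), and it made up most of the summed intensity of 684 to 837 in KO and 158 to 182 in WT.

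Among genes of proteins known to bind S100 proteins, 6 of 17 measured were higher in KO, 2 were lower and 9 did not pass. Of the 17 genes 13 were above background on all 6 arrays, and every gene that passed was among these 13. Over the whole array 22.6% of the probes passed, 10.4% higher and 12.1% lower in KO. Of all probes above background on all 6 arrays 41.0% passed, and no difference between this list and the rest was tested. The median log2 difference of this list was 0.12. Anxa6, an annexin bound by S100 proteins at membranes, had intensities of 1487, 1443 and 1419 in KO and 295.6, 373.3 and 340.0 in WT. It was 3.15-fold higher (adjusted p = 1.45e-05), and no KO value came near a WT value. Anxa1, the annexin partner of S100a11, was 1.99-fold higher (adjusted p = 0.000242). Capzb, the beta subunit of the actin capping protein, whose alpha subunit S100 proteins bind, was 1.94-fold higher (adjusted p = 1.58e-05). Together with Anxa2, 3 annexin genes of the 5 measured here rose, Anxa5 was 1.31-fold lower and Anxa11 did not pass (0.28, adjusted p = 0.4). Trp53, whose product binds S100b and S100a4, was the other gene lower, by 1.32-fold (adjusted p = 0.00428). Anxa5, Anxa11 and Trp53 were named after their values were seen.

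**Figure D3:**
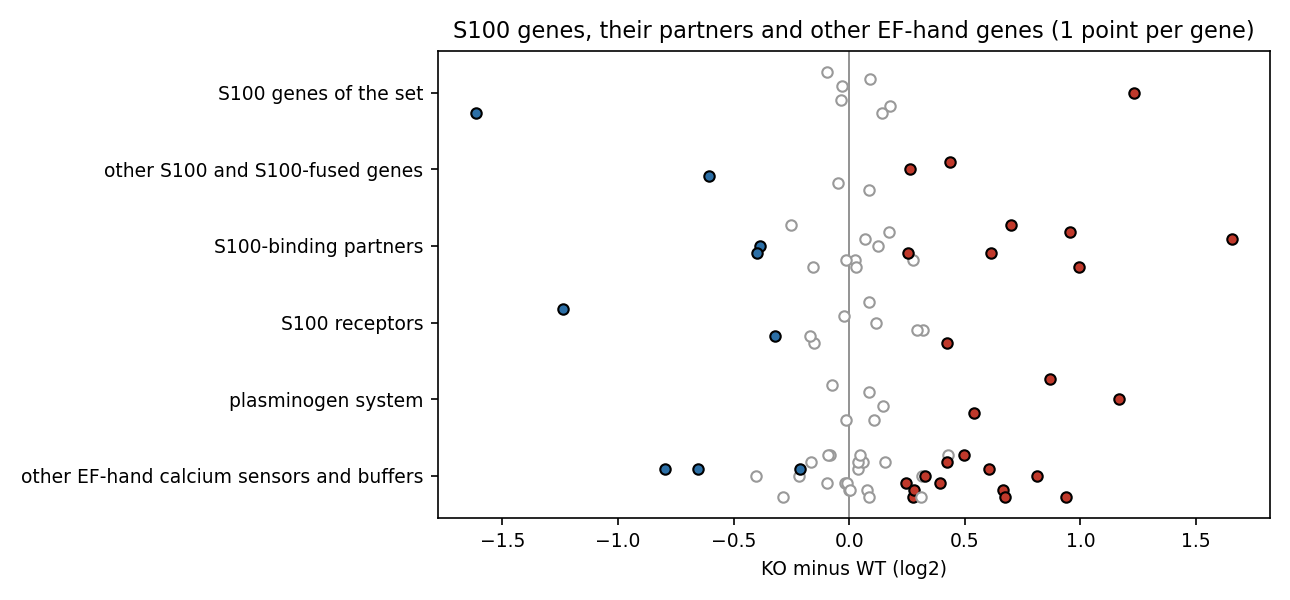
Difference between KO and WT on the log2 scale (horizontal axis), with 1 point per gene, for the S100 genes, other S100 genes, S100-binding partners, receptors, the plasminogen system and other EF-hand genes. Filled points passed the threshold, red higher and blue lower in KO, and open points did not pass. Higher and lower calls were 1 and 1 of 8 S100 genes and 2 and 1 of 5 other S100 genes. Those of the binding partners were 6 and 2 of 17, and of the receptors 1 and 2 of 10. The plasminogen system had 3 and 0 of 8, and other EF-hand genes 12 and 3 of 36. Over all probes 10.4% were higher and 12.1% lower in KO. Of all calls 46.3% were higher, but 64.1% under median scaling, and the lists were not tested against each other.

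Of 10 measured receptor genes for extracellular S100 proteins 1 was higher in KO and 2 were lower, with a median log2 difference of 0.03. Over all probes 22.6% passed, 10.4% higher and 12.1% lower, and no difference between this list and the rest was tested. Emb, or embigin, a membrane glycoprotein listed as a receptor for S100a9, had intensities of 6.42, 6.38 and 5.20 in KO and 86.5, 90.4 and 62.2 in WT. It was near background on every KO array and at least 2.0-fold lower in KO (adjusted p = 2.13e-05). Ly96, the co-receptor MD-2 of TLR4, was 1.34-fold higher (adjusted p = 0.00619), a call lost with an offset of 0 (0.0717) and with the authors' normalized values (0.116). Scarb1, a scavenger receptor, was 1.25-fold lower at an adjusted p of 0.0432 and lost this call in 9 of 15 other settings. Those 9 included the absence of KO replicate 1 or 2 and of any 1 WT replicate. Ager, which encodes RAGE, was near background on all 6 arrays, and Tlr4 did not pass (0.30, adjusted p = 0.0522). Both, and Krt8 above, were named after their values were seen.

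In the plasminogen system, which S100a10 serves at the cell surface, 3 of 8 measured genes were higher in KO and none was lower, with a median log2 difference of 0.13. Over all probes 10.4% were higher and 12.1% lower, and no difference between this list and the rest was tested. Plaur, the urokinase receptor, had intensities of 717.4, 811.3 and 846.9 in KO and 228.3, 256.6 and 281.1 in WT, and was 2.25-fold higher (adjusted p = 0.000519). Plat, the tissue plasminogen activator, was at least 1.18-fold higher and Serpine2, an inhibitor of plasminogen activators, at least 1.75-fold higher. Both were near background on all 3 WT arrays and above it on all 3 KO arrays. Plau and Plg were near background on all 6 arrays.

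Among other genes with EF-hands, 12 of 36 measured were higher in KO, 3 were lower and 21 did not pass, and 24 of the 36 were above background on all 6 arrays. The median log2 difference was 0.07, against -0.005 over the 10547 named genes tested, of which 1382 were higher and 1371 lower. Sparc, a secreted calcium-binding glycoprotein that also stands in the fibroblast list, was 1.76-fold higher (adjusted p = 9.29e-05). Efhd1, a mitochondrial EF-hand protein, was at least 1.35-fold higher, and Capn2, the large subunit of m-calpain, was 1.59-fold higher with its spot on KO replicate 3 left out as contaminated (adjusted p = 0.00403). Sri, or sorcin, a calcium sensor that like S100a1 binds the ryanodine receptor, was 1.74-fold lower (adjusted p = 0.00379). The call of Sri was lost with median scaling (adjusted p = 0.113) and with the authors' normalized values (0.0818), and that of Capn2 with the latter (0.0553) and with an offset of 0 (0.0646).

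By distance between mean-centred log2 profiles over the 6 arrays, the named genes most like S100a3 among 10628 probes were Mtarc2 (distance 0.21, 2.42-fold higher) and Hes6 (distance 0.23, 2.21-fold higher). Those most like S100a1 were Gdpd5 (distance 0.13, 2.90-fold lower) and Cxcl12 (distance 0.20, near background on every KO array). This likeness is a description over 6 arrays.

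The values of S100a1 and S100a3 were stable in direction. S100a1 stayed lower and past the threshold in 15 of 15 other settings, from -2.12 to -1.49 on the log2 scale, and S100a3 stayed higher and past it in 15 of 15, from 1.07 to 1.68. The ends farthest from 0 came from the authors' normalized values, with those at an offset of 0 close by (-2.12 and 1.62). The sign of the S100a13 difference changed between settings, from -0.11 to 0.08, and it never passed.

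**Figure D4:**
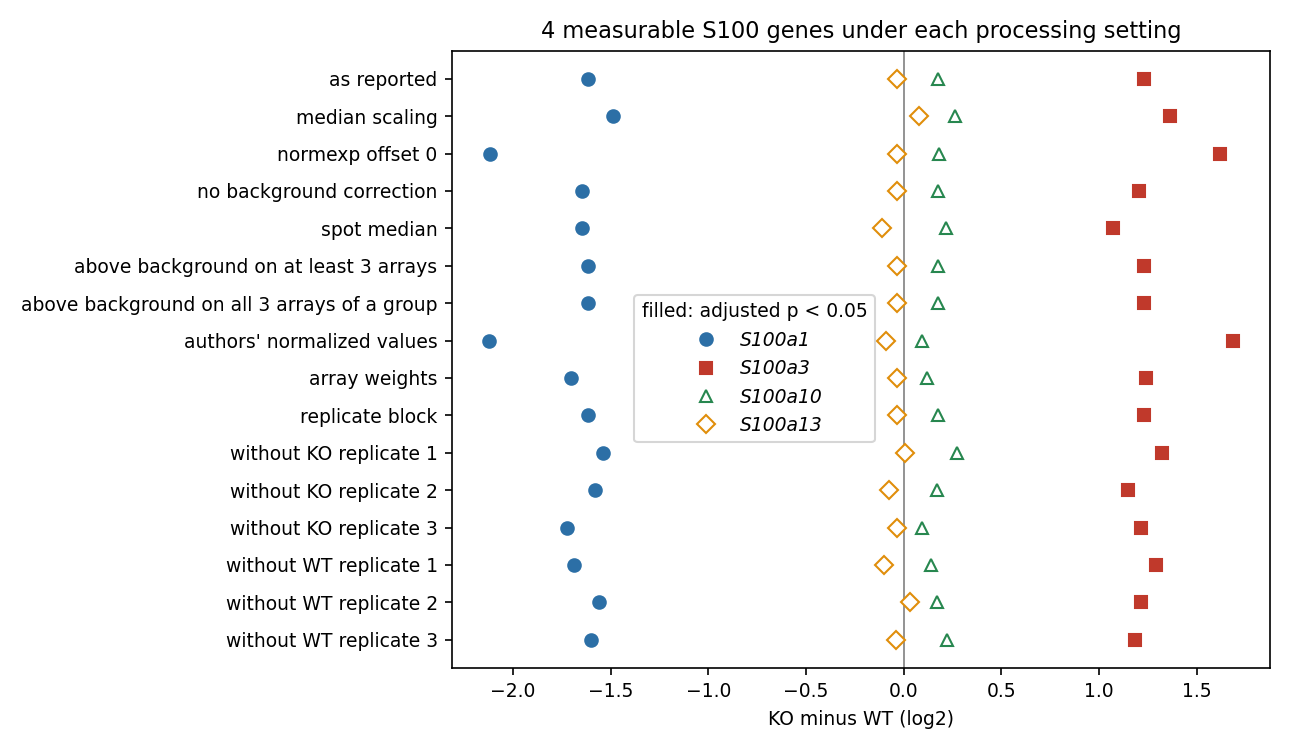
Difference between KO and WT on the log2 scale (horizontal axis) of S100a1, S100a3, S100a10 and S100a13 in the reported fit and 15 other settings (vertical axis). Filled symbols have an adjusted p under 0.05. S100a1 and S100a3 stay on opposite sides of 0 with all symbols filled, and S100a10 and S100a13 stay open.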

How the data were processed

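Each file holds 1 channel of a CodeLink 20K mouse array, although the labels describe a culture in Cy5 and a pool of the same genotype in Cy3. Values were taken as those of the culture named in the file. Were they the pool's, the 3 arrays of each genotype would repeat 1 RNA. Deposited values are spot and local background intensities, and the authors' normalized intensity is the mean spot minus the median background divided by 1 constant per array. The authors' deposited table holds the same normalized intensities on a linear scale, uncentred (column medians 0.961 to 0.974), with KO replicates 2 and 3 exchanged, as are the names inside these 2 files. The submitters' processing notes name limma without a version, and the sources used here do not name the reading software.

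Here, background was corrected with normexp (offset 50), masked, contaminated and irregular spots were left out, saturated spots kept, control spots dropped, and log2 values quantile normalized. KO and WT were compared with lmFit and eBayes in limma 3.58.1 under R 4.3.3, two-sided, for 19590 probes with at least 2 values per group, Benjamini-Hochberg adjusted over all of them. The fit was also run on simulated data with independent noise and with changes put only in brighter probes. No statement here rests on that run. A fold next to a group near background on every array is "at least": the brighter group's mean against the dim group's mean of whichever is larger on each array, the probe's signal or the lowest signal above background. Of 19801 gene probes 10712 were named by RefSeq accession and 101 by a unique synonym, and 8988 stayed unnamed. Lists used each gene's brightest probe. Named from each list were up to 4 genes with the smallest adjusted p among those that passed. The S100 genes and all lists were chosen with earlier results of these data known. Replicate numbers were checked as pairs: deviations of same-numbered KO and WT arrays correlated at 0.24, -0.116 and 0.0966 across probes, so the numbers were not taken as pairs.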

Additional observations from a re-analysis of the deposited data

How the results depend on the processing

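Over all probes 4419 passed, 2717 with offset 0 and 2428 with the authors' normalized values (log2 of the value, floored at 0, plus 0.1). Leaving out 1 array gave 3177 to 5798, the most without KO replicate 3, on which the fewest probes were detected. Median scaling in place of quantile normalization turned the share of calls that were higher in KO from 46.3% to 64.1%. The counts of S100 genes, 1 higher and 1 lower, stayed at 1 and 1 in all 15 other settings. The 71 partner, receptor, plasminogen and other EF-hand genes gave 22 higher and 7 lower, against 10.4% higher and 12.1% lower over all probes. Of all probes above background on all 6 arrays 41.0% passed, and no difference between these genes and the rest was tested. These 71 genes gave 13 and 3 at offset 0, 11 and 2 with the authors' values, and 23 and 1 under median scaling. Without 1 array they gave 15 to 27 higher and 5 to 8 lower. With the replicate block 4338 probes passed, and S100a1 (-1.62), S100a3 (1.23) and the counts of S100 genes kept their calls. Of 380 single-gene values under another setting 357 kept their side of the threshold. These include values of S100a6 and S100a13 whose sign changed, and neither gene passed in any setting. The other 23, of S100a5, Anxa2, Ly96, Scarb1, Sri and Capn2, lost their calls, and their causes were not tested. With the offset, dim signals near background limit what can be seen of S100a8, S100a9 and S100b, and saturation limits S100a6.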
